A study of Mus musculus with 4 samples.

Results

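The genes described are the subunits of the phagocyte NADPH oxidase and its close relatives: Cyba, Cybb, Ncf1, Ncf4, Rac1, Rac2, Cybc1 and Nox4, with the voltage-gated proton channel gene Hvcn1. They were taken by gene symbol, and all 9 were among the 22520 genes measured. The RNA came from lineage-depleted bone marrow, the cells left after magnetic beads have removed marrow cells with markers of mature blood lineages, a fraction rich in stem and progenitor cells. One group was Cyba-/- (2 mice, here Cyba knockout) and the other was wild type (2 mice), all of the C57BL/6 strain and without treatment in the labels. The labels give neither the design of the Cyba allele nor the age or sex of the mice, and they do not pair the replicate numbers of the groups. In the values, however, the deviations of same-numbered libraries from their group means had a correlation of 0.607 over 13790 genes. Unless stated otherwise, the tests below use no pairing, and a fit with the replicate number as a block is given in the last section. The libraries held between 22340115 and 23596196 estimated reads.

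The phagocyte oxidase passes electrons from NADPH across a membrane to oxygen and so makes superoxide, which neutrophils and macrophages use to kill microbes. Its membrane part, flavocytochrome b558, is a pair of proteins, gp91phox (Cybb), which carries the electrons, and p22phox (Cyba), which stabilizes gp91phox and docks the cytosolic subunits. On activation, cytosolic subunits, p47phox and p40phox among them, move to the membrane with a Rac GTPase, and a proton channel carries out the charge that the electrons leave behind. In blood cells the loss of p22phox or gp91phox causes chronic granulomatous disease. In marrow, oxidase genes are switched on as progenitors mature along the granulocyte and monocyte lines.

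Promoter sequences are shown for the heavy chain gene Cybb and for Ncf1, because these 2 members had the smallest p-values among those higher in the Cyba knockout libraries. RefSeq (build GRCm38.p6) gave a window of 300 bases, from 250 before to 50 after the annotated start, for 5 of the 9 members. Capitals mark matches to 3 motifs searched on both strands: GAGGAA (reverse TTCCTC), the core of sites for the Ets factor PU.1, CCAAT (reverse ATTGG), and a pair of GAAA with any 2 bases between them (reverse, a pair of TTTC), a form of the interferon response element. The Cybb window lies at chrX:9469275-9469574 and the Ncf1 window at chr5:134229576-134229875, both on the minus strand and written 5′ to 3′ along the gene.
Cybb: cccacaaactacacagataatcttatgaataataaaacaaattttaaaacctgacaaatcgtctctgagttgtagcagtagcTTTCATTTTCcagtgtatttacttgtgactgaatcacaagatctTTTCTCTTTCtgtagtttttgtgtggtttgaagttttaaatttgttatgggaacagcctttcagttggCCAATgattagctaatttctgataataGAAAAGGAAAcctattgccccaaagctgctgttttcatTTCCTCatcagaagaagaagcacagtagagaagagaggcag
Ncf1: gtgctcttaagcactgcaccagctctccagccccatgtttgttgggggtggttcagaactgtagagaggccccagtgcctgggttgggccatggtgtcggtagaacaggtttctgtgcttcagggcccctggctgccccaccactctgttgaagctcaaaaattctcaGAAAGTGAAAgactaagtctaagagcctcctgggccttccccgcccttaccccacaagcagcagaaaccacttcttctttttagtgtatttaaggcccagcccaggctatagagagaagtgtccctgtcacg
The Cybb window held 5 matches, and none of them overlapped. They were the GAAA pair at bases 83 and 127, both on the reverse strand, and at base 222 of the window, with CCAAT at base 195 and TTCCTC at base 260. The Ncf1 window held 1 match, the GAAA pair at base 169, and the Cyba and Nox4 windows held none of these letters. Of the windows at 2 Cybc1 starts, 1 held CCAAT at base 43 and the other GAGGAA at base 67. Of 32851 promoter windows of the same length, 3.44% held the GAAA pair, 37.4% held CCAAT and 28.3% held GAGGAA. A match is a run of letters and not a measured site, and the libraries hold no binding data.

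Cyba (chr8:122424776-122432930, minus strand, GRCm38), the targeted gene of the light chain p22phox, had 28 and 32 reads in the Cyba knockout libraries, against 1347 and 875 reads in the wild type libraries. Scaled to library size as CPM, this was 1.31 ± 0.0864 in Cyba knockout and 48.1 ± 12.6 in wild type (SD, n = 2 each), so that Cyba knockout held 2.73% of the wild type level. The groups lay far apart, and the library labels fit the targeted gene. The log2 fold change was −5.19 (SE 0.28), and its unadjusted p of 2.194e-05 was the smallest of all genes tested. In the quasi-likelihood test of edgeR, with Benjamini-Hochberg adjustment over 13790 genes, it had an adjusted p of 0.3025. DESeq2 gave it an adjusted p of 1.1e-43.

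Cybb (chrX:9435252-9487771, minus strand), the electron-carrying heavy chain gp91phox, was the member with the largest difference in the opposite direction. It had 3593 and 5130 reads in the Cyba knockout libraries, against 2056 and 1694 reads in the wild type libraries. Cybb averaged 190.3 ± 42.2 CPM in Cyba knockout and 81.4 ± 7.85 CPM in wild type (SD, n = 2 each), and its groups did not overlap. Its log2 fold change was 1.23 (SE 0.20), with an unadjusted p of 0.002448. In edgeR's quasi-likelihood test it did not pass, at a Benjamini-Hochberg adjusted p of 0.8423. That value was the smallest of all genes but Cyba, and all members but Cyba shared it. In DESeq2 Cybb passed (adjusted p = 0.001879). The message of the partner chain was thus not lower in the Cyba knockout libraries. Within a library, Cybb stood at 15.4 and 17.4 times Cyba in the Cyba knockout libraries, in TPM, a read level per transcript length, against 0.177 and 0.295 times in the wild type libraries. This ratio differed by 6.16 on the log2 scale, with a two-sided exact permutation p of 0.333, the smallest that 4 libraries allow. Most of the difference is the loss of Cyba, the targeted gene (log2 fold change −5.19), so the ratio does not describe Cybb alone.

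Cybc1 (chr11:121222588-121229322, minus strand) encodes Eros, a chaperone that the gp91phox and p22phox pair needs to reach the membrane. It had 104.5 and 83.4 CPM in the Cyba knockout libraries, against 76.7 and 66.4 CPM in the wild type libraries. The groups did not overlap, and the log2 fold change of 0.39 (SE 0.17) did not pass in edgeR's quasi-likelihood test (Benjamini-Hochberg adjusted p = 0.8423). The ratio of Cybc1 to Cybb on the TPM scale was 1.44 and 1.01 in the Cyba knockout libraries, against 2.27 and 1.74 in the wild type libraries, so the chaperone message was lower relative to the heavy chain message in both Cyba knockout libraries (exact permutation p = 0.333, two-sided).

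Nox4 (chr7:87246096-87398710, plus strand) encodes another catalytic subunit that pairs with p22phox and, unlike gp91phox, needs no cytosolic subunits. It had 7 and 11 reads in the Cyba knockout libraries, against 22 and 23 reads in the wild type libraries. With Cyba it was the member whose Cyba knockout libraries both lay below the wild type libraries. The log2 fold change was −1.31 (SE 0.40, unadjusted p 0.02543), edgeR's quasi-likelihood test with Benjamini-Hochberg adjustment gave 0.8423, and DESeq2 gave no adjusted p at such low counts.
What these few reads measure is narrower than the gene. Dividing counts by TPM gives the effective length of the transcripts to which reads were assigned, and for Nox4 its median over lanes was 925 and 925 bases in the Cyba knockout libraries, against 925 and 926 bases in the wild type libraries (925 to 1030 bases over the 16 lanes). For 70 coding genes with a single annotated transcript of 1000 to 1300 bases, the transcript was longer than this value by a median of 234 bases (quartiles 232 and 235). Among the 8 annotated Nox4 transcripts, the one that fits this offset is Nox4-204, a non-coding processed transcript of 1159 bases. The 3 coding transcripts measure 592, 1861 and 3753 bases. In this annotation the Nox4 values thus have the length of a non-coding transcript, and no separate value for the coding message was obtained.

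Ncf1 (chr5:134220053-134229625, minus strand) encodes p47phox, the organizer that binds the tail of p22phox. It had 6533 and 5967 reads in the Cyba knockout libraries, against 4737 and 2955 reads in the wild type libraries. In CPM this was 273.9 ± 25.3 in Cyba knockout and 166.3 ± 48.1 in wild type (SD, n = 2 each), with no overlap between the groups. The log2 fold change was 0.72 (SE 0.24, unadjusted p 0.03307), and the adjusted p was 0.8423 in edgeR's quasi-likelihood test (Benjamini-Hochberg) and 0.7505 in DESeq2. Of the exon bases of Ncf1, 11.1% also belong to exons of Gtf2ird2 on the other strand, and the TruSeq RNA kit v2 used here does not mark strand.

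Ncf4 (chr15:78244801-78262580, plus strand) encodes p40phox, which binds phosphatidylinositol 3-phosphate on phagosomes. Its values were 102.1 and 74.7 CPM in the Cyba knockout libraries, against 65.5 and 34.8 CPM in the wild type libraries. The groups were separate, but the wild type libraries differed 1.88-fold from each other, while Cyba knockout replicate 2 was 1.14-fold above wild type replicate 1. The log2 fold change of 0.82 (SE 0.36) did not pass in edgeR's quasi-likelihood test (Benjamini-Hochberg adjusted p = 0.8423), and it was 0.43 without wild type replicate 2 and 1.35 without wild type replicate 1.

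Rac2 (chr15:78559167-78572783, minus strand) is the Rac GTPase found mostly in blood cells and the main partner of the oxidase in neutrophils. It had 12635 and 10661 reads in the Cyba knockout libraries, against 10405 and 6547 reads in the wild type libraries. The groups did not overlap, yet Cyba knockout replicate 2 was 1.04-fold above wild type replicate 1 in CPM. The log2 fold change was 0.48 (SE 0.25), and it did not pass in edgeR's quasi-likelihood test (Benjamini-Hochberg adjusted p = 0.8423). Without wild type replicate 2 it was 0.22, and without wild type replicate 1 it was 0.81.

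Rac1 (chr5:143503634-143528036, minus strand), the GTPase present in nearly all cells and used by the oxidase of macrophages, differed least of the 9. It had 324.0 and 306.0 CPM in the Cyba knockout libraries, against 294.2 and 260.0 CPM in the wild type libraries, a log2 fold change of 0.19 (SE 0.13) that did not pass. Leaving out wild type replicate 1 gave 0.28 and leaving out wild type replicate 2 gave 0.10. About 51.4% of the exon bases of Rac1 overlap Daglb on the other strand, so its reads and those of Daglb may be mixed. The ratio of Rac2 to Rac1 was 7.29 and 5.55 in the Cyba knockout libraries, against 5.87 and 4.49 in the wild type libraries (TPM), and these values overlapped (exact permutation p = 0.667, two-sided).

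Hvcn1 (chr5:122206804-122242297, plus strand) encodes the proton channel that keeps the oxidase running by removing charge and acid. It was the only member whose groups overlapped, with 130.9 and 87.2 CPM in the Cyba knockout libraries, against 89.9 and 42.4 CPM in the wild type libraries. Its log2 fold change of 0.72 (SE 0.42) was as large as that of Ncf1 but had the largest standard error of the 9 and did not pass. It was 0.28 without wild type replicate 2 and 1.37 without wild type replicate 1. All 16 of its lane counts had lost their decimal point in the deposited tables and were restored, and 44.2% of its exon bases overlap Tctn1 on the other strand.

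**Figure D1:**
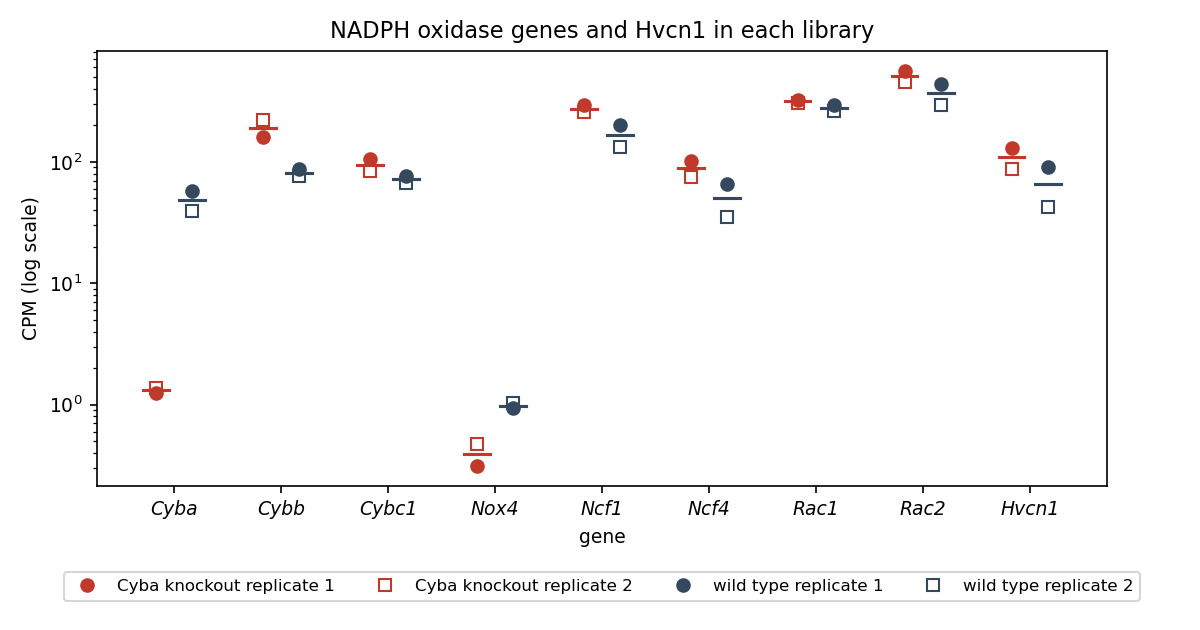
Level in CPM (log scale) of the 9 members in each library, with Cyba knockout left of wild type; filled circles are replicate 1, open squares replicate 2 and bars the mean of 2 libraries. Cyba and Nox4 lie lower in both Cyba knockout libraries, Cybb lies clearly higher, and the other genes lie closer to their wild type values.

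Over the 9 members, 7 had a log2 fold change above 0, beside 49.0% of all 13790 genes tested, and 2 below 0. Their median was 0.48, beside a median of −0.01 over all genes tested. For 6 members both Cyba knockout values exceeded both wild type values, an order shown by 17.6% of all genes. For 2 members both were below, an order shown by 16.1% of all genes. The quasi-likelihood test of edgeR called 0 members and 0 of 13790 genes (0%) at an adjusted p of 0.05, while 4 members and 449 genes had an unadjusted p under 0.05. DESeq2 called 2 members, Cyba and Cybb, and 32 of 12720 genes (0.252%), whereas limma-voom called 0 members. Between the lanes of a library, the coefficient of variation was 0.688% to 6.42% for the 7 members other than Cyba and Nox4. It reached 51.5% for Cyba and 59.9% for Nox4, both in Cyba knockout replicate 2, where their reads were few. Lanes read the same library again, and lost decimal points were restored partly by lane agreement. These values therefore do not measure the spread between mice and are no check of the restored counts.

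**Figure D2:**
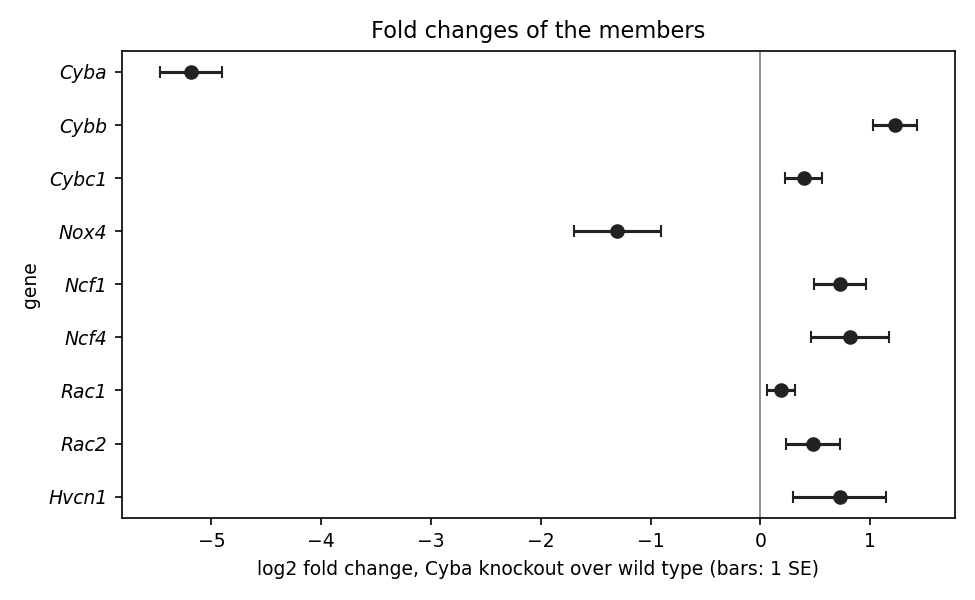
Log2 fold change of each member, Cyba knockout over wild type, from edgeR; points are estimates and bars 1 standard error, from 2 libraries per group. Cyba at −5.19 and Cybb at 1.23 stand farthest from 0 in relation to their errors, and Rac1 at 0.19 stands nearest to 0.

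The levels of different genes can be set side by side only per length, for which TPM was used. In Cyba knockout the order was Rac2 at 1634 ± 192, Rac1 at 256.5 ± 19.4, Ncf4 at 169.7 ± 0.0412, Ncf1 at 104.2 ± 3.03, Cybc1 at 45.6 ± 2.03, Hvcn1 at 39.8 ± 8.37, Cybb at 38.3 ± 7.83, Cyba at 2.33 ± 0.28 and Nox4 at 0.361 ± 0.136 TPM (SD, n = 2). The order was the same in wild type apart from Cyba, with Rac2 at 1199 ± 284, Rac1 at 230.3 ± 11.6, Ncf4 at 89.8 ± 36.8, Cyba at 82.4 ± 20.1, Ncf1 at 69.3 ± 22.1, Cybc1 at 36.9 ± 2.77, Hvcn1 at 24.0 ± 12.7, Cybb at 18.6 ± 2.14 and Nox4 at 0.885 ± 0.0417 TPM (SD, n = 2). Neighbours within their spread were Cybc1, Hvcn1 and Cybb in Cyba knockout. In wild type the spread of Hvcn1 reached both Cybc1 and Cybb, and Ncf4, Cyba and Ncf1 lay within their spread as well. In wild type the light chain message thus stood well above that of the heavy chain in TPM. In reads not divided by length the order was the opposite, with Cybb at 1.53 and 1.94 times Cyba in the wild type libraries.

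TPM levels depend on the length that reads are divided by, which was short for Rac2 and Ncf4. The effective length implied for Rac2 was 246 and 276 bases in the Cyba knockout libraries, against 261 and 254 bases in the wild type libraries, while its annotated transcripts measure 254, 459 and 3038 bases. In reads not divided by length, Rac2 stood at 1.13 to 1.74 times Rac1 over the 4 libraries. The implied length of Ncf4 was 464 and 395 bases in the Cyba knockout libraries, against 482 and 495 bases in the wild type libraries, while its coding transcripts measure 792 and 1464 bases. Ncf4 thus stood at 3.17 to 6.79 times Cybb in TPM but at 0.339 to 0.754 times Cybb in reads over the 4 libraries. The implied length of Cybb was 3828 and 4494 bases in the Cyba knockout libraries, against 4314 and 3470 bases in the wild type libraries and so varied within both groups. That of Cyba was 474 and 499 bases in Cyba knockout, where the reads are few, against 500 and 497 bases in wild type. The 3 annotated Cyba transcripts measure 638, 682 and 744 bases, so this length could differ little between the groups. It does not show which part of the gene the remaining Cyba reads came from.

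**Figure D3:**
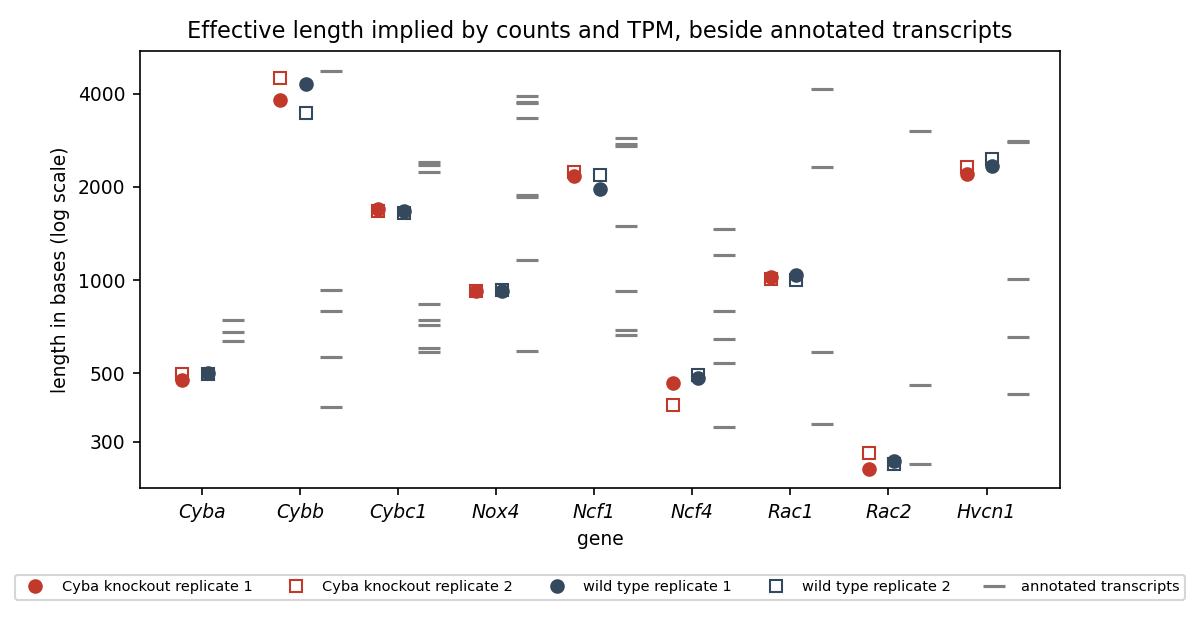
Effective length in bases (log scale) implied by counts and TPM for each member in each library, Cyba knockout left of wild type, with the lengths of the annotated transcripts as grey bars at the right of each gene. Nox4 sits at the same length in all 4 libraries, below a transcript of 1159 bases, and Rac2 has the shortest effective length of the 9. An effective length is shorter than its transcript.

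The members differed in the order of their libraries. Of the 9 members, 6 had their highest value in Cyba knockout replicate 1 and 7 their lowest in wild type replicate 2, whereas Cybb was highest in Cyba knockout replicate 2. For the 6 members other than Cyba, Cybb and Nox4, wild type replicate 1 exceeded wild type replicate 2 by 1.13 to 2.12 times in CPM. Relative to Cybb on the TPM scale, the log2 difference between Cyba knockout and wild type was −0.88 for Rac1, −0.73 for Cybc1 and −0.57 for Rac2. It was −0.41 for Ncf1, −0.21 for Hvcn1 and −0.05 for Ncf4. In reads not divided by length, these differences were −1.02, −0.82, −0.71, −0.46, −0.42 and −0.34, in the same order of genes. None of the 9 ratios computed among members had an exact permutation p below 0.333, which 4 libraries cannot pass. On the TPM scale the differences of Ncf1, Ncf4 and Hvcn1 changed sign when 1 library was left out.

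Marker genes of the cell types that make oxidase differed between the libraries too. In bulk RNA, more cells of a type and more message per cell cannot be told apart. The summed level of 8 monocyte and macrophage markers was 3637 and 3306 CPM in the Cyba knockout libraries, against 2329 and 1647 CPM in the wild type libraries. Of these markers, Csf1r, Ly6c2, F13a1 and Ms4a6c were highest in Cyba knockout replicate 1. Ccr2, Cx3cr1, Lyz2 and Fn1 were highest in Cyba knockout replicate 2, as was Cybb. For all 8 markers both Cyba knockout values exceeded both wild type values, an order shown by 17.6% of all genes, and DESeq2 called 2 of them, beside 0.252% of all genes. The 10 neutrophil markers summed to 1039 and 4433 CPM in the Cyba knockout libraries, against 424.1 and 1231 CPM in the wild type libraries, with the sums overlapping, and 3 of the 10 had both Cyba knockout values above both wild type values. The 6 markers of granulocyte-monocyte progenitors summed to 16140 and 10560 CPM in the Cyba knockout libraries, against 11640 and 5645 CPM in the wild type libraries, the same order of libraries as Hvcn1, and 3 of the 6 had both Cyba knockout values above both wild type values. The 3 eosinophil markers summed to 1913 and 531.0 CPM in the Cyba knockout libraries, against 635.7 and 352.4 CPM in the wild type libraries. These sums overlapped, and 0 of the 3 had both Cyba knockout values above both wild type values. DESeq2 called 0 genes of the neutrophil, granulocyte-monocyte progenitor and eosinophil lists.
The 7 measured erythroid markers were lowest in Cyba knockout replicate 1 and highest in wild type replicate 2, at 647.6 and 1334 CPM in the Cyba knockout libraries, against 1148 and 2144 CPM in the wild type libraries. The 7 markers of stem and multipotent progenitors summed to 673.0 and 589.5 CPM in the Cyba knockout libraries, against 694.6 and 539.7 CPM in the wild type libraries. B cell markers summed to 27.6 to 70.3 CPM and T cell markers to 12.8 to 41.7 CPM over the 4 libraries, and 0 markers of these lists were at 0 reads in all libraries. The part of these cell types in the differences of Cybb and the other members was not tested.

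**Figure D4:**
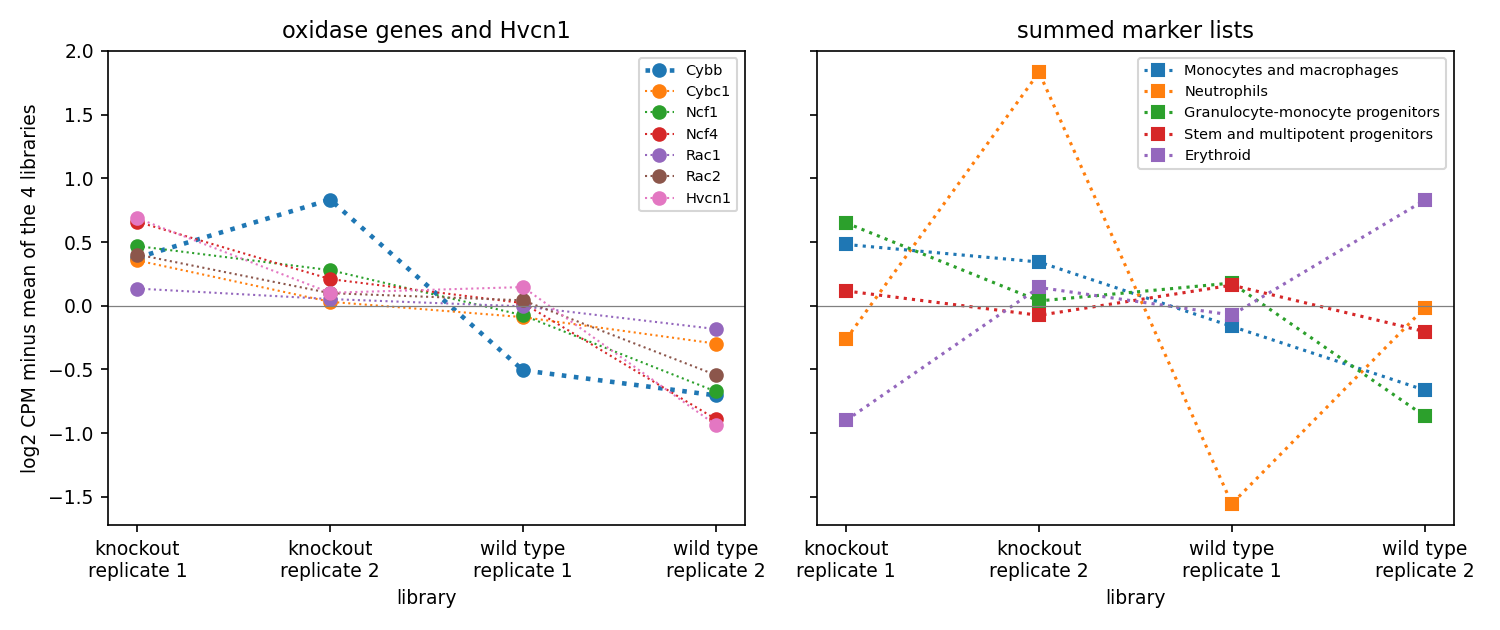
Log2 CPM of each library minus the mean of the 4 libraries, for 7 members (left) and for summed marker lists (right), with the Cyba knockout libraries left of the wild type libraries; dotted lines only join values of the same gene or list. Most members are highest in Cyba knockout replicate 1 and lowest in wild type replicate 2, as is the sum of the monocyte and macrophage markers. Cybb and the sum of the neutrophil markers are highest in Cyba knockout replicate 2. Cybb is lowest in wild type replicate 2, and the neutrophil sum in wild type replicate 1.

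The genes whose pattern over the 4 libraries was most like that of Cybb were found by distance in log2 CPM after removing each gene's mean, among 9412 genes. They were Itgam at 0.0875, Pi16 at 0.0982, Lyz2 at 0.193, Mcemp1 at 0.216 and Oasl2 at 0.224, whereas the nearest member, Ncf1, lay at 0.709. Itgam, the alpha chain of the Mac-1 integrin of myeloid cells, had 110.7 and 141.2 CPM in the Cyba knockout libraries, against 60.0 and 51.8 CPM in the wild type libraries. Of its exon bases, 68.7% are also annotated to Gm49368. Lyz2, the lysozyme of macrophages and neutrophils and a monocyte marker here, had 674.4 and 831.6 CPM in the Cyba knockout libraries, against 303.5 and 296.8 CPM in the wild type libraries. The likeness is a description, and the 5 genes were chosen for it on the same 4 libraries in which Cybb itself passed in DESeq2. That all 5 passed in DESeq2 too, with adjusted p from 2.046e-07 for Lyz2 to 0.02642 for Mcemp1, follows largely from this choice. None passed in edgeR's quasi-likelihood test (Benjamini-Hochberg adjusted p = 0.8423).

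Other genes of the pathway were read from 3 lists, and neither edgeR's quasi-likelihood test nor DESeq2 called any gene of them. Of 26 activators of assembly, all tested, 23 had a log2 fold change above 0, beside 49.0% of all genes, and 3 below 0. Their median was 0.31, and 1 had an unadjusted p under 0.05 in edgeR's quasi-likelihood test. In 6 of them both Cyba knockout values exceeded both wild type values, beside 17.6% of all genes. The 3 with the smallest p were S100a8, a calcium-binding protein of neutrophils that favours assembly, with a log2 fold change of 1.65 (SE 0.51), and the kinases Prkcb at 0.98 (SE 0.38) and Prkcd at 0.53 (SE 0.24), which phosphorylate p47phox. S100a8 had 321.1 and 749.7 CPM in the Cyba knockout libraries, against 123.0 and 217.2 CPM in the wild type libraries, and is also one of the neutrophil markers.
Of 10 transcription factors known to act on Cybb, 9 had a log2 fold change above 0, beside 49.0% of all genes, and 1 below 0. Their median was 0.39, and 1 had an unadjusted p under 0.05 in edgeR's quasi-likelihood test. In 4 of them both Cyba knockout values exceeded both wild type values, beside 17.6% of all genes. Spi1, which encodes PU.1, had 159.6 and 128.9 CPM in the Cyba knockout libraries, against 118.3 and 70.9 CPM in the wild type libraries (log2 fold change 0.61, SE 0.29). Cebpb, a factor of the granulocyte and monocyte lines, had 37.7 and 31.0 CPM in the Cyba knockout libraries, against 24.0 and 10.8 CPM in the wild type libraries (0.98, SE 0.41). Neither of them was highest in Cyba knockout replicate 2, where Cybb was highest.
Of 9 other subunits and isoforms, 5 were in the tables and 3 had enough reads to be tested. Among these were Noxo1, an organizer like p47phox, with a log2 fold change of 0.33 (SE 0.31) at under 3 CPM, and the catalytic subunit Nox1, at −0.39 (SE 0.64) with 14 and 7 reads in the Cyba knockout libraries, against 20 and 8 reads in the wild type libraries. The activator Noxa1 had 1 and 6 reads in the Cyba knockout libraries, against 7 and 6 reads in the wild type libraries.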

How the data were processed

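RNA was taken from lineage-depleted marrow of 2 Cyba knockout and 2 wild type mice, with 2 micrograms of total RNA per library, and grouped by title. Salmon, DESeq2 and the GRCm38 build are named in the submitters' processing notes; versions, annotation and strand setting are not given in the sources used here. The authors deposited estimated counts and TPM (in the damaged form treated here as a score) for 22520 genes in 4 lanes per library. In the deposited tables, numbers above 1 with at least 3 decimals had lost the decimal point. Of 360320 count values, 24.8% had more than 1 reading, as had 53.2% of the TPM values. Readings were weighed jointly per gene over lanes, libraries, TPM and transcript length. Genes with an expected error of library totals up to 5% or 1 read were kept, 22059 in all. Of the members' 144 count values 41 had more than 1 reading and 28 were read other than deposited, and all 9 members were kept (8 when the libraries were not tied, Hvcn1 not). Repaired lanes summed to 987475 to 995700 TPM. The repair and the fits were also run on data simulated from the repaired values, which is no independent check of either.

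Lanes were summed, rounded and fitted with the quasi-likelihood test of edgeR 4.0.16 (TMM, default expression filter, 13790 genes, two-sided, Benjamini-Hochberg adjusted p threshold 0.05). The alternatives were DESeq2 1.42.0, limma 3.58.1, other scalings and filters, a replicate block and leaving out each library. GENCODE vM21 matched 22384 identifiers. The SD is over 2 libraries. The p-values of edgeR, DESeq2 and limma set group differences against variation between mice, estimated from few libraries with information shared over genes. The exact permutation p rests on the 6 ways to split 4 libraries. The members and gene lists were chosen with earlier results of these data known. The named genes are the members, up to 3 genes per list with the smallest p, and the 5 genes nearest to Cybb among those averaging a log2 CPM of 3 or more, predicted models left out; a few genes named by it are not reported here.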

Additional observations from a re-analysis of the deposited data

How the results depend on the processing

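The log2 fold change of each member kept its sign under every alternative in which that member was tested. Cybb, Ncf1 and Hvcn1 had no value in the alternative that used only lanes with a single reading. Hvcn1 had none in the repair without a tie between libraries, and Nox4 none with at least 10 reads required in every library. The range when 1 library was left out was −5.43 to −4.89 for Cyba, 0.98 to 1.45 for Cybb, 0.45 to 1.06 for Ncf1, 0.43 to 1.35 for Ncf4, 0.10 to 0.28 for Rac1, 0.22 to 0.81 for Rac2, 0.23 to 0.55 for Cybc1, 0.28 to 1.37 for Hvcn1 and −1.63 to −1.03 for Nox4. The count of genes called was 0 in the quasi-likelihood test of edgeR, with 449 at an unadjusted p under 0.05. It was 32 with DESeq2 and 32 with the edgeR likelihood ratio test, and 2 members were called by each. Leaving out 1 library gave 0 to 3 genes, with 3 without Cyba knockout replicate 2, and 0 members each time. With the replicate number as a block, 1308 genes and 7 members (all but Rac1 and Nox4) were called, but the labels do not pair the mice, and the deviations of same-numbered libraries had a correlation of 0.607. The log2 difference of Ncf1 to Cybb ranged from −0.86 to 0.041 over the libraries left out and was above 0 without wild type replicate 1. That of Ncf4 to Cybb ranged from −0.60 to 0.50 (0.16 without Cyba knockout replicate 2, 0.50 without wild type replicate 1). That of Hvcn1 to Cybb ranged from −0.89 to 0.47 (0.22 and 0.47 without the same libraries). The causes of these changes were not tested. Other scalings, filters, repairs of the decimal points, thresholds, limma-voom and limma-trend on TPM left the counts at 0. With 2 mice per group the exact tests could not go below 0.333, and Nox4, at 7 to 23 reads, is limited by depth.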
